A study of Homo sapiens with 6 samples.

Results

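The 10 genes described here encode the enzymes that methylate lysine 9 of histone H3 (SUV39H1, SUV39H2, EHMT1, EHMT2, SETDB1 and SETDB2), the corepressor TRIM28 and the HP1 proteins CBX1, CBX3 and CBX5. They were chosen by gene name, each matched 1 row of the 35974 genes in the deposited table, and all 10 passed the filter on low counts. The RNA came from SU-DHL-8, an established human line of diffuse large B-cell lymphoma (DLBCL) whose label gives lymph node as its tissue and wild type as its DNMT1 genotype. It was sequenced in 6 libraries. Of these, 3 libraries came from cells given the solvent DMSO, and 3 from cells given GSK3685032, which inhibits the methyltransferase DNMT1. Inhibitor replicates 2 and 3 carry the compound names GSK3685033 and GSK3685034 in their labels. The series design speaks of GSK3685032 only, so the 3 were kept together and replicate 1 was also tested by itself. The sources used here give no dose and no time, and no label states that libraries came from separate cultures. The p-values thus reflect the spread among these libraries of 1 cell line, which may be technical.

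Methylation of histone H3 at lysine 9 (H3K9) marks silent chromatin. SUV39H1 and SUV39H2 place the trimethyl mark at pericentromeric repeats, EHMT1 (GLP) and EHMT2 (G9a) act as a pair that places mono- and dimethylation in euchromatin, and SETDB1 is brought to retroelements and other targets by TRIM28, the partner of KRAB zinc finger proteins. HP1 proteins read the mark through their chromodomain and recruit further silencing factors, and DNA methylation and H3K9 methylation often occupy the same regions. The comparison asked how the transcripts of these factors differ when DNMT1, which copies DNA methylation at CpG sites after replication, is inhibited.

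Libraries held 53846028 to 75304441 estimated counts, and the first principal component, with 89.1% of the variance, separated the groups. DNMT1 itself measured 33.0 ± 0.690 FPKM (fragments scaled to gene length and library size) with DMSO and 12.7 ± 0.774 with the inhibitor (SD, n = 3 each). The B-cell markers MS4A1, CD79A, CD79B, PAX5, CD22 and BCL6 were expressed in every library. CD79B, a subunit of the B-cell receptor, ranged from 521 to 556 FPKM with DMSO and from 367 to 387 with the inhibitor, and MS4A1, the lymphocyte surface protein CD20, from 13.2 to 15.0 and from 3.15 to 4.53. Myeloid and stromal markers (4 of each) stayed under 1 FPKM in every library. The 2 T-cell markers in the table summed to 2.02 to 2.86 FPKM with DMSO and 5.02 to 6.94 with the inhibitor. The 3 epithelial markers summed to at most 0.0144 FPKM with DMSO and to 2.74 to 4.15 with the inhibitor. Their part in the results below was not tested.

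The bases upstream of the members that changed most and of SETDB1 are shown because the compound acts on an enzyme of CpG methylation. They come from RefSeq (GRCh38.p14), where 9 of the 10 members have an entry, run 5′ to 3′ on the gene's strand, and carry every CpG in capitals. Methylation itself was not measured in these files. Each sequence begins 250 bases before an annotated start and ends at that start, or at most 30 bases past the start of another transcript that begins before it. SUV39H1 has 2 such starts, at positions 48695554 and 48696734, and values per gene cannot tell which was used. The first 4 sequences belong to genes that fell with the inhibitor (SUV39H1, SUV39H2 and CBX5), and the last to SETDB1, the only member called higher.
SUV39H1, first start, chrX:48695304-48695553, plus strand: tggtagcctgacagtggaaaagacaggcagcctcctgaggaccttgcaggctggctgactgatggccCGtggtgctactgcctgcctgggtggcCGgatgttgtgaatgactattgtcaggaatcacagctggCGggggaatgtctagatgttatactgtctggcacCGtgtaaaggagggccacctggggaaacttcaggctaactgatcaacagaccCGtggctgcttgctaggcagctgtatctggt
SUV39H1, second start, chrX:48696484-48696624, plus strand: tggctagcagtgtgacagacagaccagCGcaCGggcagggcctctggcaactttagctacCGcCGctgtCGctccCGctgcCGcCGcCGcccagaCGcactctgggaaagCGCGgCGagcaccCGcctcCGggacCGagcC
SUV39H2, chr10:14878616-14878849, plus strand: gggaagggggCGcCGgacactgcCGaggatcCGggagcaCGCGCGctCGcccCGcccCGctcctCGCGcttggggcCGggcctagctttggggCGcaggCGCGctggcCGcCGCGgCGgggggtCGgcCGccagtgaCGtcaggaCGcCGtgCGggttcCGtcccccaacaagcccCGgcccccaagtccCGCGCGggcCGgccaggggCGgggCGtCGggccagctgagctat
CBX5, chr12:54280123-54280372, minus strand: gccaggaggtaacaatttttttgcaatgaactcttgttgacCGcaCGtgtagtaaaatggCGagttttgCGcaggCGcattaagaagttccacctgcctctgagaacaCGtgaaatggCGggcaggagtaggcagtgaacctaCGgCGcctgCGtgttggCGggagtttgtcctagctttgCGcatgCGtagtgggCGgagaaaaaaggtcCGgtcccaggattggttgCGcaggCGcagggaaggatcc
SETDB1, chr1:150926013-150926262, plus strand: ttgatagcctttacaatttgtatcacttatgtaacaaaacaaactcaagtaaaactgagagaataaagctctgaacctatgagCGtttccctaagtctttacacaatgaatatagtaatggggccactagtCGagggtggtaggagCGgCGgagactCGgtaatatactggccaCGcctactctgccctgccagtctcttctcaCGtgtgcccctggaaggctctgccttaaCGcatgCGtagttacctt

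CpG content differed widely among these windows of 300 bases (250 before to 50 after the start). The window of the first SUV39H1 start held 7 CpGs, an observed to expected ratio of 0.3, while the one at the second start held 42 CpGs at a ratio of 1.08. The SUV39H2 window held 44 CpGs (ratio 1.01), the CBX5 window shown 25 (ratio 1.1) and the SETDB1 window shown 15 (ratio 0.83). The other 2 annotated CBX5 starts, both within the gene, held 4 and 6 CpGs (ratios 0.19 and 0.25). A second annotated SETDB1 start, at position 150926363, held 22 CpGs (ratio 0.87). EHMT1, which was not called, held 51 (ratio 1.08). The median over all 35116 RefSeq windows was 14 CpGs at a ratio of 0.58. The windows of EHMT2 and CBX1, both called lower, had ratios of 0.75 and 0.9. Those of SETDB2 and CBX3, not called, had 0.93 and 0.71. Ratios above that median thus occurred in members called lower, in SETDB1, which was called higher, and in members that were not called.

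Motifs of cell cycle promoters were searched on both strands of the same windows. The E2F letters TTTCCCGC, TTTCGCGC, TTTGCCGC or TTTGGCGC occurred in 3.3% of all windows. They occurred in 8 of the 13 proliferation genes with an entry, and among the 9 members only at CBX3. That gene was not called. CCAAT occurred in 34.6% of all windows, in 11 of the 13 and in 2 of the 9, CBX5 and SETDB2. The second SUV39H1 window held CCAAT as well. The letters TTTGAA or TTCGAA occurred in 16.4% of all windows, in 4 of the 13 and among members only at SUV39H2. A match describes letters only.

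Of the 10 members, 6 were called lower with the inhibitor and 1 was called higher (edgeR's quasi-likelihood test, Benjamini-Hochberg adjusted over all tested genes, threshold 0.05). Of all 20783 tested genes, 27.3% were called lower and 38.1% higher, or 65.4% in either direction, so that 7 called of 10 is a share near that of all genes. The median log2 change was -0.40 over the members and 0.14 over all tested genes. With quantile normalization of FPKM, 44.5% of all calls were higher, against 58.3% here. The FPKM ranges of the groups did not overlap in 8 members, with 2 higher and 6 lower. The same held for 71.7% of tested genes, with 41.7% higher and 30.0% lower. In bulk RNA, fewer cells of a kind and less RNA per cell cannot be told apart.

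**Figure D1:**
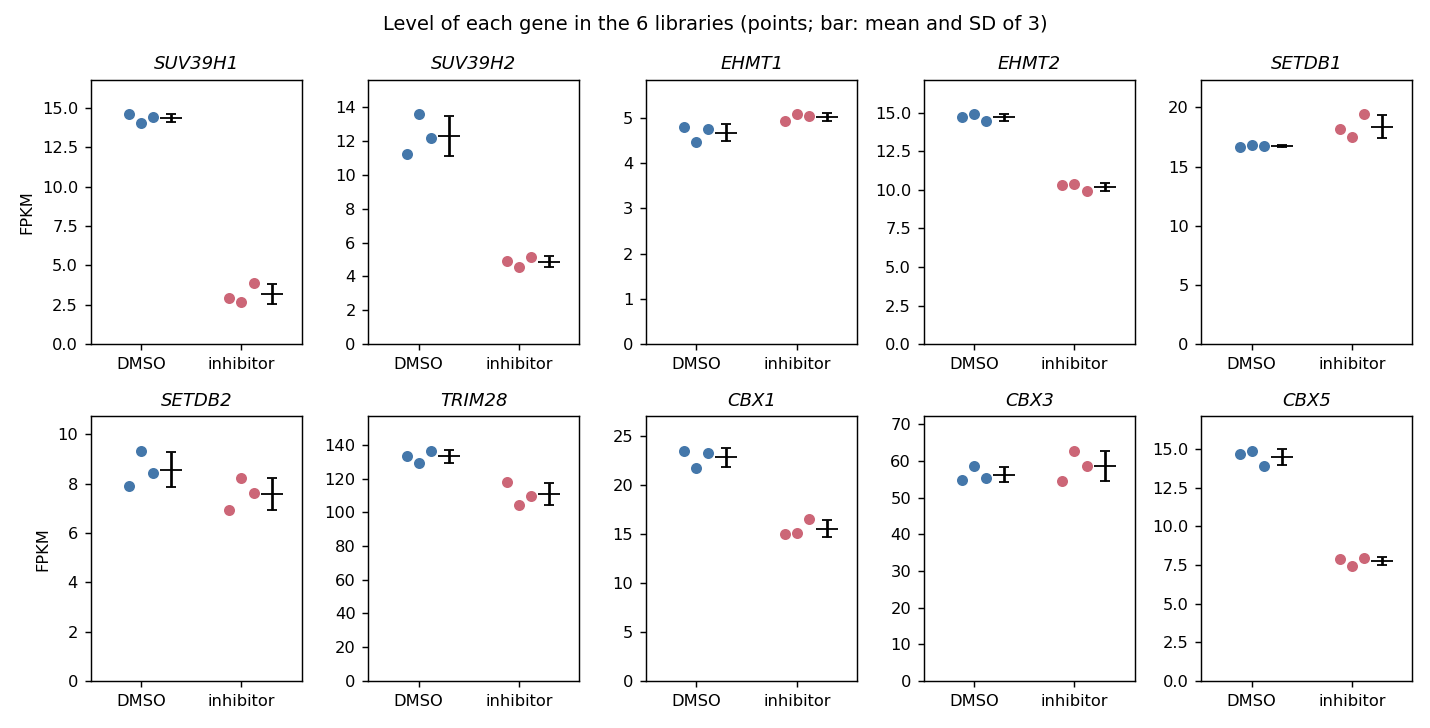
FPKM of each of the 10 genes (vertical axes from 0) in the 3 DMSO and 3 inhibitor libraries; points are libraries and bars are the mean and SD of 3. The groups lie far apart for SUV39H1, SUV39H2 and CBX5, and they overlap for SETDB2 and CBX3.

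The SUV39 enzymes had the largest decreases. SUV39H1 (ENSG00000101945, GRCh38 chromosome X, 48695554 to 48709016, plus strand) measured 14.6, 14.1 and 14.4 FPKM in the DMSO libraries and 2.96, 2.66 and 3.88 in the inhibitor libraries. Every inhibitor library was far below every DMSO library, and replicate 3 was the highest of the treated libraries. The gene fell 4.55-fold (log2 change -2.19, SE 0.119, edgeR adjusted p = 3.03e-07), and 1.5% of tested genes had a lower log2 change. SUV39H2 (ENSG00000152455, chromosome 10, 14878820 to 14904315, plus strand), its paralog, measured 11.2, 13.6 and 12.2 FPKM with DMSO and 4.91, 4.55 and 5.17 with the inhibitor. The groups did not overlap, although the DMSO libraries spread more than for SUV39H1 (SD 1.18 against 0.269 FPKM). SUV39H2 fell 2.54-fold (log2 change -1.34, SE 0.0867, edgeR adjusted p = 8.59e-07). The sum of both genes was 25.8, 27.6 and 26.6 FPKM with DMSO and 7.87, 7.21 and 9.04 with the inhibitor.

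The EHMT pair split. EHMT2 (G9a, ENSG00000204371, chromosome 6, 31879759 to 31897698, minus strand) measured 14.7, 14.9 and 14.4 FPKM with DMSO and 10.3, 10.4 and 9.91 with the inhibitor. The libraries within each group were close together and the groups were separate. EHMT2 fell 1.45-fold (log2 change -0.53, SE 0.0444, edgeR adjusted p = 4.50e-06). EHMT1 (GLP, ENSG00000181090, chromosome 9, 137618992 to 137870016, plus strand), with which EHMT2 forms a heterodimer, measured 4.79, 4.45 and 4.75 FPKM with DMSO and 4.92, 5.07 and 5.04 with the inhibitor. The groups came close without overlapping. At a log2 change of 0.10 with an SE of 0.0430, EHMT1 did not pass the test (edgeR adjusted p = 0.0717). EHMT1 was called higher under 6 of 19 alternatives, with a log2 change of 0.07 to 0.27 and an adjusted p of 0.000342 to 0.239 over all of them.

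The SETDB enzymes differed little between the groups. SETDB1 (ENSG00000143379, chromosome 1, 150926263 to 150964735, plus strand) measured 16.6, 16.9 and 16.7 FPKM with DMSO and 18.2, 17.5 and 19.4 with the inhibitor. Every inhibitor library was higher, with a fitted log2 difference of 0.13 ± 0.0463 (SE, edgeR adjusted p = 0.0352). This is close to the median of all tested genes, 0.14. This call was lost under 8 of 19 alternatives, among them leaving out any library except inhibitor replicate 2 (log2 change 0.09 to 0.13, adjusted p 0.0613 to 0.127 in those 5 cases), and the adjusted p ran from 0.000289 to 0.127 over all 19. SETDB2 (ENSG00000136169, chromosome 13, 49444274 to 49495003, plus strand), a less studied relative, measured 7.90, 9.32 and 8.44 FPKM with DMSO and 6.92, 8.23 and 7.61 with the inhibitor. These ranges overlap, and the difference of -0.18 on the log2 scale (SE 0.0760) did not pass the test (edgeR adjusted p = 0.0598). It was called lower under 3 alternatives, among them leaving out DMSO replicate 1 (adjusted p = 0.0268) or inhibitor replicate 2 (adjusted p = 0.0292), within a range of 0.0176 to 0.925 over the 19 alternatives.

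TRIM28 (ENSG00000130726, chromosome 19, 58544064 to 58550715, plus strand), the corepressor that links KRAB zinc finger proteins to SETDB1, was the most abundant member. It measured 134, 129 and 136 FPKM with DMSO and 118, 105 and 110 with the inhibitor. The lowest DMSO library was above the highest inhibitor library, and TRIM28 fell 1.20-fold (log2 change -0.27, SE 0.0556, edgeR adjusted p = 0.00186). The call ended under upper-quartile scaling (log2 change -0.10, adjusted p = 0.132). That scaling raises the log2 change of the median gene by 0.17. No other alternative ended the call, and the adjusted p ran from 6.38e-06 to 0.132 over the 19.

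The HP1 genes also split. CBX5 (HP1 alpha, ENSG00000094916, chromosome 12, 54230942 to 54280133, minus strand) measured 14.6, 14.9 and 13.9 FPKM with DMSO and 7.90, 7.42 and 7.93 with the inhibitor. The groups were well separated, and CBX5 fell 1.88-fold (log2 change -0.91, SE 0.0485, edgeR adjusted p = 2.69e-07). CBX1 (HP1 beta, ENSG00000108468, chromosome 17, 48070052 to 48101478, minus strand) measured 23.5, 21.7 and 23.3 FPKM with DMSO and 15.0, 15.1 and 16.5 with the inhibitor. Again every inhibitor library was lower, and CBX1 fell 1.48-fold (log2 change -0.56, SE 0.0541, edgeR adjusted p = 1.20e-05). CBX3 (HP1 gamma, ENSG00000122565, chromosome 7, 26201162 to 26213607, plus strand), which is found in euchromatin as well as heterochromatin, measured 54.9, 58.7 and 55.2 FPKM with DMSO and 54.6, 62.7 and 58.7 with the inhibitor. The groups overlapped, and a log2 difference of 0.05 (SE 0.0518) left CBX3 short of the threshold (edgeR adjusted p = 0.395). Its sign turned with inhibitor replicate 1 alone (-0.024, edgeR adjusted p = 0.775). It was called higher under 4 alternatives, among them upper-quartile scaling (log2 change 0.23, adjusted p = 0.00393) and quantile normalization with limma (0.21, adjusted p = 0.0140), within a range of 0.00393 to 0.902 over the 19 alternatives.

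**Figure D2:**
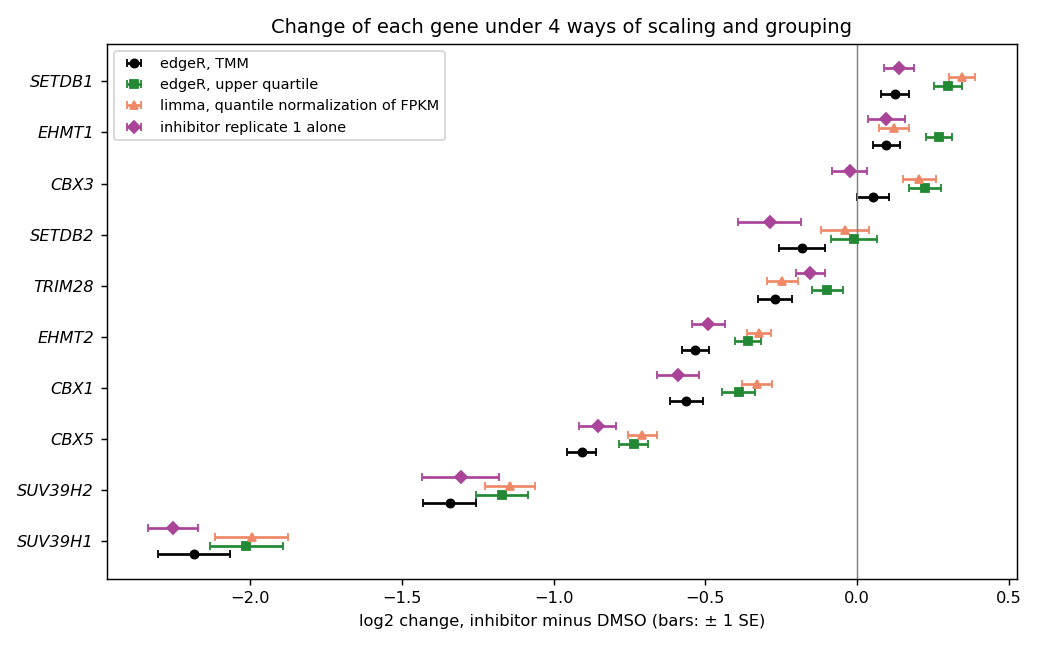
Log2 change of each gene, inhibitor minus DMSO, with bars of 1 SE, for the edgeR fit with TMM scaling, upper-quartile scaling, quantile normalization of FPKM with limma, and inhibitor replicate 1 against the 3 DMSO libraries. SUV39H1, SUV39H2, CBX5, CBX1 and EHMT2 lie left of 0 in all 4, while CBX3 lies on both sides.

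Across the 19 alternatives, SUV39H1 kept a log2 change of -2.35 to -1.89 and SUV39H2 of -1.42 to -1.14. CBX5 ran from -0.94 to -0.71, CBX1 from -0.60 to -0.33 and EHMT2 from -0.56 to -0.32. Each of these 5 genes was called lower in all 19. With inhibitor replicate 1 alone, that library is assumed to vary like the DMSO libraries, which give all of the spread.

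The order of the members by FPKM changed with treatment. With DMSO it ran TRIM28, CBX3, CBX1, SETDB1, EHMT2, CBX5, SUV39H1, SUV39H2, SETDB2 and EHMT1, and the ranges of EHMT2, CBX5 and SUV39H1 overlapped with their neighbour in that order. With the inhibitor SUV39H1 was last, below SUV39H2 and EHMT1, whose ranges overlapped. SETDB1 stood above CBX1, and the ranges of CBX5 and SETDB2 overlapped.

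The make-up of the methyltransferase transcripts differed accordingly. The 6 enzymes summed to 69.9, 73.2 and 70.9 FPKM with DMSO and to 48.2, 48.4 and 51.0 with the inhibitor. SUV39H1 held 20.1% ± 0.843 of that sum with DMSO and 6.42% ± 1.07 with the inhibitor (SD, n = 3 each). SETDB1 held 23.8%, 23.0% and 23.6% in DMSO libraries and 37.7%, 36.2% and 38.1% with the inhibitor, the largest share in every library. EHMT2 held 20.6% ± 0.408 and then 20.7% ± 1.14, although its own level was lower. The HP1 genes summed to 93.6 ± 1.49 and 82.0 ± 3.99 FPKM. CBX3 held 60.1% ± 1.31 of them with DMSO and 71.6% ± 1.77 with the inhibitor, and CBX5 15.5% ± 0.355 and 9.48% ± 0.745.

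**Figure D3:**
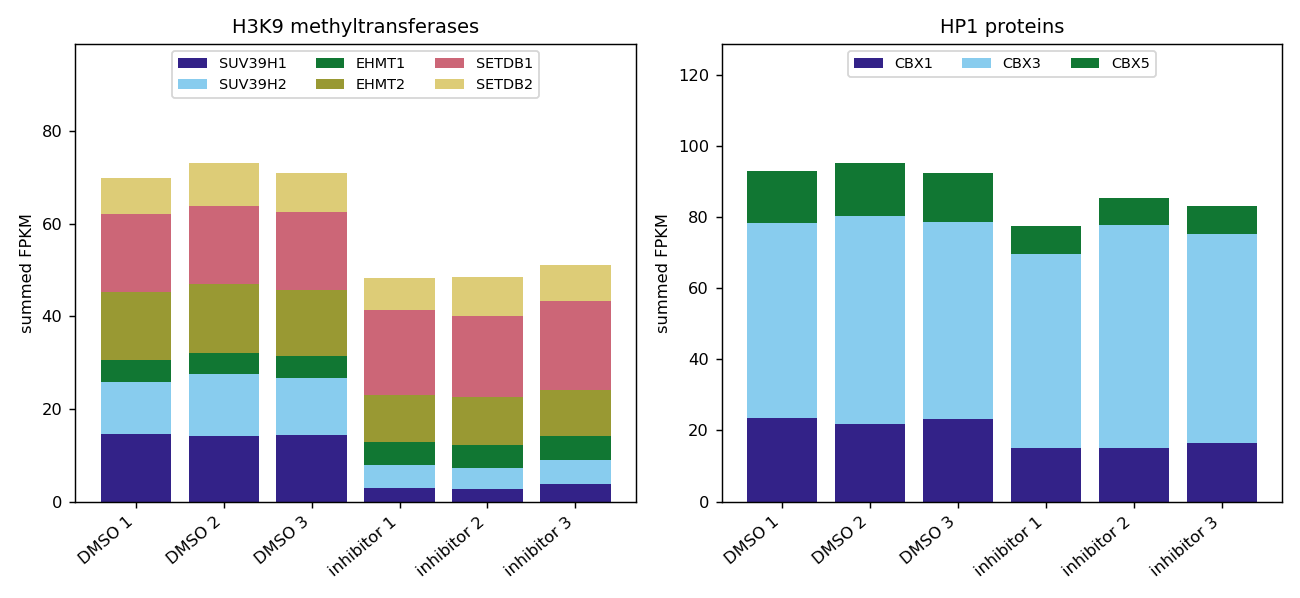
Summed FPKM (vertical axes from 0) of the 6 H3K9 methyltransferases and of the 3 HP1 genes in each library, stacked by gene. The methyltransferase sum is 69.9 to 73.2 with DMSO and 48.2 to 51.0 with the inhibitor, and the SUV39H1 segment shrinks most.

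Ratios within a library do not depend on how libraries are scaled to each other. The ratio of SUV39H1 to SUV39H2 was 1.30, 1.04 and 1.19 in the DMSO libraries and 0.603, 0.586 and 0.751 in the inhibitor libraries, so SUV39H1 was the higher of the pair only with DMSO. The ratio of EHMT1 to EHMT2 was 0.325, 0.299 and 0.329 in DMSO libraries, against 0.477, 0.490 and 0.508 in treated ones. The ratio of CBX5 to CBX3 was 0.266, 0.254 and 0.252 in DMSO libraries and 0.145, 0.118 and 0.135 in inhibitor libraries. SETDB1 relative to TRIM28 was 0.125, 0.130 and 0.123 and then 0.154, 0.167 and 0.177. In these 4 ratios the libraries of the groups were fully separate. The other 3 were also separate: SETDB1 to SETDB2 went from a mean of 1.97 to 2.44, CBX1 to CBX3 from 0.406 to 0.265 and CBX1 to CBX5 from 1.58 to 2.003. The exact permutation test gave p = 0.1 for each of the 7, two-sided, which is the smallest that 3 against 3 libraries allow (0.1 after Benjamini-Hochberg adjustment over the 7).

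Other genes of the pathway were read from 6 lists with 46 genes, of which 16 were called higher and 22 lower, with a median log2 change of -0.10. These and the counts per list below stand beside 38.1% higher, 27.3% lower and a median of 0.14 over all tested genes, and no list was tested against other genes. The balance turned under upper-quartile scaling, with 21 higher and 16 lower. Of the SETDB1 partners, 3 of 4 were called higher and 0 lower by edgeR (4 and 0 at an unadjusted p under 0.05 and by DESeq2, 3 and 0 by limma). ATF7IP2, a paralog of the SETDB1 cofactor ATF7IP, rose from 1.92 ± 0.107 to 4.40 ± 0.376 FPKM (n = 3 each). RESF1, a SETDB1 partner in retroelement silencing, rose from 9.74 ± 0.243 to 16.3 ± 0.890, and MBD1, a methyl-CpG binding protein, from 9.28 ± 0.307 to 13.2 ± 0.493. ATF7IP itself measured 9.64 ± 0.591 and 10.6 ± 0.565 and was not called (edgeR adjusted p = 0.0619). It was called higher under 9 alternatives, among them upper-quartile scaling (adjusted p = 0.00102).

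The HUSH complex, which spreads H3K9 methylation over retroelements with SETDB1, had 3 of 5 listed genes higher and 1 lower. TASOR rose from 8.51 ± 0.487 to 11.2 ± 0.947 FPKM, MPHOSPH8, the chromodomain subunit, from 9.94 ± 0.170 to 13.1 ± 0.994, and PPHLN1 from 12.3 ± 0.576 to 14.0 ± 0.721. TASOR2, a paralog of TASOR, fell from 19.9 ± 0.339 to 14.4 ± 0.953. The ATPase MORC2 measured 9.21 ± 0.249 and 9.77 ± 0.259 and was not called (edgeR adjusted p = 0.168). PPHLN1 was not called without DMSO replicate 1 (adjusted p = 0.0666) or with inhibitor replicate 1 alone (adjusted p = 0.110), and MORC2 was called higher under upper-quartile scaling (adjusted p = 0.000737). Of the EHMT partners, ZNF644, a zinc finger protein that binds G9a and GLP, fell from 15.0 ± 0.358 to 9.68 ± 0.563 FPKM and CDYL, a chromodomain protein, from 12.3 ± 0.717 to 8.90 ± 0.0999. In all, 2 of 4 were lower and 1 higher. The latter, CDYL2, named after its values were seen, stayed under 1 FPKM in every library (edgeR adjusted p = 0.0261). Where CDYL2 was tested, its call was lost under 4 alternatives. Among these were leaving out inhibitor replicate 2 (edgeR adjusted p = 0.121) and inhibitor replicate 1 alone (log2 change 1.98). CDYL2 was not tested under the filter of FPKM 1 in 3 libraries, by limma or with counts divided by 4, so those alternatives do not bear on its call.

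H3K9 demethylases went both ways, with 5 of 11 higher and 6 lower. KDM4B rose from 2.90 ± 0.186 to 6.15 ± 0.286 FPKM, KDM7A from 5.20 ± 0.592 to 8.11 ± 0.439 and PHF8 from 5.69 ± 0.297 to 8.51 ± 0.200. The other 2 higher genes were KDM3A and KDM4A. The call of KDM3A (edgeR adjusted p = 0.0188) was lost under 3 alternatives, among them leaving out DMSO replicate 1 (adjusted p = 0.0962) or inhibitor replicate 1 (adjusted p = 0.0585). Under upper-quartile scaling 5 were higher and 1, KDM3B, was lower. KDM3B fell from 17.2 ± 0.246 to 13.6 ± 0.150 FPKM. Of the other lower calls, KDM4D was lost under 13 of 19 alternatives, KDM4C under 12 and KDM1A under 4. JMJD1C was lost under 2 and PHF2 under 1. The FPKM ranges of KDM4D overlapped between the groups, and it was not tested under the filter of FPKM 1 in 3 libraries. All of these lower genes, KDM3A and KDM4A were named after their values were seen. Of 15 HP1-associated and other heterochromatin proteins, 9 were lower and 2 higher. The largest changes were in subunits of the chromatin assembly factor CAF-1, which deposits histones at replication forks: CHAF1B fell from 5.05 ± 0.447 to 0.985 ± 0.143 FPKM and CHAF1A from 24.6 ± 0.702 to 6.46 ± 0.746. INCENP, of the chromosomal passenger complex, fell from 17.6 ± 1.55 to 6.06 ± 0.473. The 2 higher genes were SENP7, a SUMO protease, and KMT5B, an H4K20 methyltransferase, both named after their values were seen. The call of SENP7 (edgeR adjusted p = 0.0353) was lost under 11 of 19 alternatives. Among these were leaving out DMSO replicate 1 or 3 (adjusted p = 0.1001 and 0.116) or inhibitor replicate 2 or 3 (adjusted p = 0.0526 and 0.134), and limma with quantile normalization (adjusted p = 0.421). Under upper-quartile scaling 5 were higher and 8 lower. Of 7 genes that tie DNA methylation to this pathway, 4 were lower and 2 higher. The remodeller HELLS fell from 8.81 ± 0.424 to 2.16 ± 0.520 FPKM. The other lower genes included DNMT1 and UHRF1, and the higher ones were DNMT3A, a de novo methyltransferase, and CDCA7, the partner of HELLS (UHRF1 and CDCA7 named after their values were seen). The call of CDCA7 (log2 change 0.12, edgeR adjusted p = 0.0289) was lost under 5 alternatives. Among these were leaving out DMSO replicate 1 (adjusted p = 0.118), DMSO replicate 2 (0.0911) or inhibitor replicate 3 (0.0745) and inhibitor replicate 1 alone (0.150). The edgeR adjusted p of each pathway gene given with an FPKM change here was at most 0.0115, apart from those stated as not called.

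**Figure D4:**
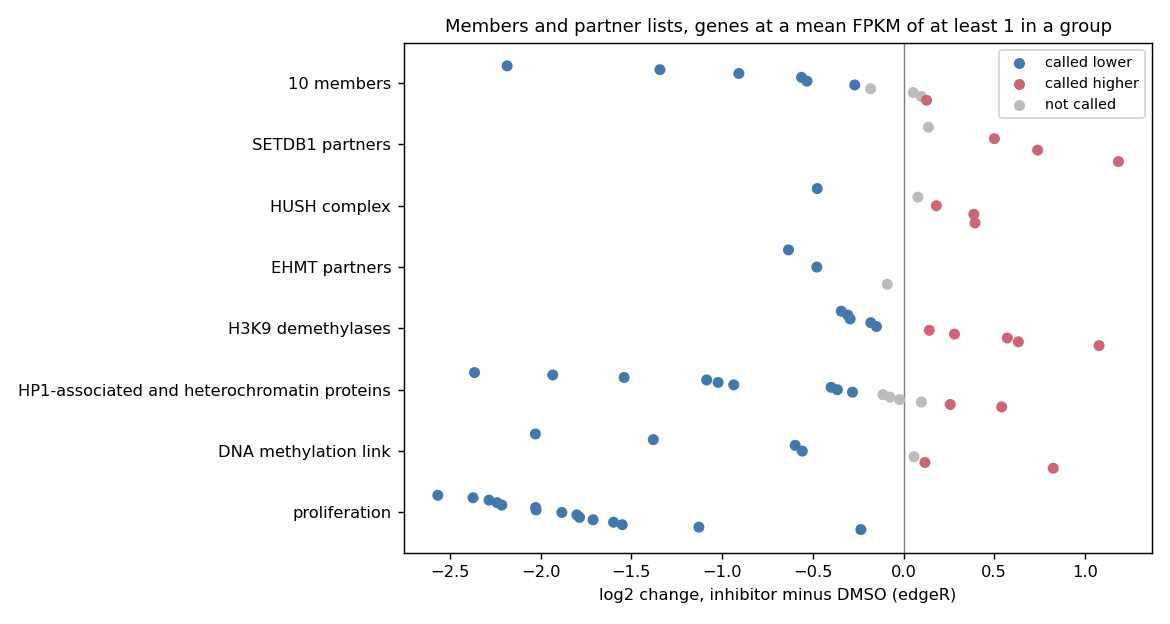
Log2 change (edgeR, inhibitor minus DMSO) of the 10 members and of the genes in 7 lists with a mean of at least 1 FPKM in a group; each point is a gene, coloured by its call. The SETDB1 partners lie right of 0, and the proliferation genes all lie left of 0.

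Proliferation genes moved with the members that fell. All 15 listed were lower and 0 higher by edgeR (0 higher also at an unadjusted p under 0.05 and by DESeq2 and limma), with a median log2 change of -1.88 and a summed level of 2000 to 2021 FPKM with DMSO and 451 to 546 with the inhibitor. PCNA, the sliding clamp of replication, fell from 916 ± 5.91 to 155 ± 16.9 FPKM, and the thymidylate synthase TYMS from 123 ± 5.13 to 23.8 ± 2.95. CDK1, the mitotic kinase, measured 28.1, 25.0 and 27.3 FPKM with DMSO and 5.76, 4.58 and 6.20 with the inhibitor. The smallest decrease, that of CCNB1 (named after its values were seen, log2 change -0.24, edgeR adjusted p = 0.0468), was lost under 15 of 19 alternatives, among them upper-quartile scaling (-0.063, adjusted p = 0.575) and quantile normalization with limma (-0.030, adjusted p = 0.802). The part of this list in the decreases of SUV39H1, SUV39H2, CBX1, CBX5 and EHMT2 was not tested. The 5 genes whose profile over the 6 libraries lay nearest to that of SUV39H1, by Euclidean distance of centred log2(FPKM + 0.5) among 12896 genes with a mean of at least 1 FPKM in a group, included XRCC2 (distance 0.0963), a gene of homologous recombination, and CKAP2L (0.125), a spindle protein. BIRC3 (0.178), an inhibitor of apoptosis, and the kinase MELK (0.192) were also among them. These profiles share the group difference, with 3 libraries on each side.

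Neighbouring genes limit some of these values, because strand use in counting is not given. In GENCODE release 29 the exons of SETDB1 share 948 of 7093 bases (13.37%) with CERS2 on the opposite strand, which measured 54.3 FPKM with DMSO and 49.4 with the inhibitor (log2 change -0.14, edgeR adjusted p = 0.0134). CBX3 shares 368 of 4641 exonic bases with HNRNPA2B1 (log2 change -0.38, edgeR adjusted p = 3.85e-05), and SUV39H2 shares 159 of 3565 with DCLRE1C (log2 change -0.27, edgeR adjusted p = 0.00837). SUV39H1 shares 685 of 3368 exonic bases with ENSG00000232828 on the opposite strand, which held a mean of 1.33 counts in each group. Processed copies of CBX1, CBX3 and CBX5 in the table held at most 89 counts in any library, against at least 2824 for the genes themselves.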

How the data were processed

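Poly(A) RNA of 6 SU-DHL-8 libraries was sequenced as strand-marked paired reads, per the labels' protocols. The tools listed, without role or order, in the submitters' processing notes are HISAT2 2.2.1, cutadapt 1.9, edgeR, DESeq2 and StringTie 2.1.6. The notes name the mouse build mm10, but the gene IDs are human and the members' deposited positions lie within 251 bases of GENCODE release 29 on GRCh38. Values deposited by the authors are, for every gene in each library, estimated counts and FPKM, whose scaling the file headers leave undefined. Counts peak at multiples of 4, so about 4 counts were read as 1 read pair (13461507 to 18826110 pairs per library).

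Counts of all 6 libraries were tested in R 4.3.3 by the quasi-likelihood method of edgeR 4.0.16, with filterByExpr, TMM factors and Benjamini-Hochberg adjustment over 20783 genes, two-sided, called at 0.05. The test was checked on simulated counts with 50 changes of each size. It recovered 12 of 50 at 1.25-fold, 34 of 50 at 1.5-fold, and 50 of 50 at 2-fold and at 4-fold. It also called 14 of the 20583 genes left unchanged. Many changes of 1.25-fold were thus missed there. Far fewer genes were changed there than were called in the 6 libraries, and a share as large was not tested. Standard errors are the log2 change divided by the square root of F. Alternatives used DESeq2 1.42.0, limma 3.58.1 on log2(FPKM + 0.5), other scalings and filters, and left-out libraries. Replicates within a group differed by more than sampling noise. The variance over that expected from sampling had a mean over genes of 3.08 to 6.23 and a median of 0.717 to 1.07, where sampling alone gives a median of 0.455.

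Members and lists were chosen with earlier results of these data known. Named were all 10 members, every SETDB1 partner and HUSH gene, up to 3 called genes per other list with the largest change and a mean of at least 1 FPKM in a group, DNMT1, and genes among the 5 nearest in profile to the member that changed most. Other names are marked as chosen after their values were seen. The 7 lists are the SETDB1 partners, the HUSH complex, EHMT partners, H3K9 demethylases, HP1-associated proteins, the DNA methylation link and proliferation. A few genes of the lists are not reported here.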

Additional observations from a re-analysis of the deposited data

How the results depend on the processing

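The count of members called lower (6) stayed between 5 and 7 under all 19 alternatives. The count called higher (1) rests on SETDB1 and was not stable. It was 2 with RLE factors, DESeq2, quantile normalization and counts divided by 4. It was 3 with upper-quartile factors, with a filter of FPKM 1 in 3 libraries, and with library totals without abundant genes. It was 0 by edgeR with no filter (2 at an unadjusted p under 0.05), with the replicate number as a block (1) and with inhibitor replicate 1 alone (1), and it was 0 to 1 when a library was left out. CBX3 turned to -0.024 with inhibitor replicate 1 alone, and the cause was not tested. Under that FPKM filter fewer genes (12395) were tested and 4826 were higher (7918 in the report). The log2 change of genes tested in both fits also shifted by a median of 0.0969. Over all genes, the deviations of same-numbered libraries correlated at 0.00049, 0.0211 and 0.00268, and not every library correlated best with its own number. Values near 0 over all genes cannot exclude a pairing, and no label states one, so whether the numbers pair libraries is unknown. The block gave 7448 higher and 5368 lower genes, against 7918 and 5672, and called SETDB2 lower (adjusted p = 0.0176). Upper-quartile scaling gave 21 higher and 16 lower of the 46 pathway genes outside the proliferation list, against 16 and 22. Libraries held 53846028 or more counts and members at least 532, at about 4 counts per read pair. Whether depth limited the members was not tested. The 3 libraries per group limited the changes near 0.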
